A study of Mus musculus with 24 samples.

Results

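The cytosolic ribosomal protein genes encode the proteins of the small (40S) and large (60S) ribosomal subunits. They were chosen by gene symbol alone: Rps or Rpl with a number and, for some, the ending a, x, l or al, together with Rplp0, Rplp1, Rplp2 and Rpsa. This rule found 83 of the 47643 symbols in the deposited table. Of these, 78 had a mean of at least 1 TPM, a share of all transcripts scaled to transcript length, and entered the tests, 31 of the small and 47 of the large subunit. All 78 were at 1 TPM or more in every library. Mitochondrial ribosomal proteins, whose symbols begin with Mrp, are a separate family.

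The table holds 24 RNA-seq libraries in 6 groups of 4, from 3 brain regions (neocortex, cerebellum, hippocampus). The mice were C57BL/6J males, 4 months old. In each region, 4 libraries came from mice that had received LLC cells, sampled 3 weeks after the injection, and 4 from mock-injected control mice. LLC is the usual short form of Lewis lung carcinoma; the labels give only the letters, and the series title names melanoma. The labels give no tumour size, do not say whether the libraries of 1 number in the 3 regions share a mouse, and call the libraries biological replicates. The summed TPM of a cerebellar marker list was 2384 to 4297 in the 8 cerebellar libraries and 64.3 to 102 in the others, and that of a hippocampal list was 209 to 313 in hippocampus and 47.8 to 158 elsewhere. A neocortical list was at 1206 to 1466 TPM in neocortex, 318 to 505 in cerebellum and 1454 to 1611 in hippocampus, so it set cerebellum apart but did not follow the label between neocortex and hippocampus. Haemoglobin genes summed to 727 to 1617 TPM in the controls and to 2609 to 15477 TPM in the LLC libraries, with replicate 4 the lowest LLC library in each region. A list of neutrophil markers summed to 1.08 to 15.02 TPM in controls and 23.7 to 195 TPM in LLC libraries, and a list of endothelial markers to 152 to 248 and 223 to 442 TPM. The mean log2 difference of an astrocyte list from the region's controls was -0.47 to 0.09 in LLC libraries, and that of a neuron list -0.23 to -0.02. A choroid plexus list varied most widely in hippocampus, where it summed to 50.1 to 4079 TPM in controls and 53.3 to 7431 TPM in LLC libraries. The part of these cell types in the LLC differences below was not tested. Genes of the mitochondrial genome held 20.0 to 27.5% of all TPM. TPM values carry no read numbers, so the depth of these libraries is unknown. In such tissue samples, fewer cells of a type and less RNA per cell cannot be told apart.

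Each ribosome carries 1 copy of nearly every ribosomal protein, so cells make the proteins in near-equal amounts although their genes lie on many chromosomes. Many of these mRNAs begin with a cytosine followed by a run of pyrimidines, the 5′ terminal oligopyrimidine (TOP) tract, through which the mTORC1 kinase, by way of LARP1, controls their translation more than their amount. Several ribosomal proteins also act away from the ribosome: free RPL5 and RPL11 bind MDM2 and so stabilise p53. Neurons use ribosomes in axons and dendrites as well as in the cell body, and mRNAs of ribosomal proteins are among those found there.

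The start of the transcript is shown first, because the TOP tract is the feature this family is known for. RefSeq promoters on GRCm38.p6 were given for 61 of the 83 genes, and each window below holds the 15 bases before the annotated start and the 15 bases from the start on, in the sense of the gene. Capitals mark the start C and the unbroken run of C and T after it where that run is at least 4 bases long, searched only at the start and only on the gene's strand.
Rps6, chr4:86857353-86857382, minus strand: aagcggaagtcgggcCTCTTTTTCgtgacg
Rps18, chr17:33955651-33955680, minus strand: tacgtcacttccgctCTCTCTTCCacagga
Rps15a, chr7:118116133-118116162, minus strand: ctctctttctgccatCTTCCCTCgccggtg
Rps27, chr3:90213634-90213663, minus strand: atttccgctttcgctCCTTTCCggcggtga
Rpl28, chr7:4792950-4792979, plus strand: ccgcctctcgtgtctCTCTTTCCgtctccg
Rpl15, chr14:18270972-18271001, minus strand: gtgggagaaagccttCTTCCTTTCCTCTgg
Rpl35, chr2:39005117-39005146, minus strand: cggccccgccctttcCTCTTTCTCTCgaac
Rpl38, chr11:114668565-114668594, plus strand: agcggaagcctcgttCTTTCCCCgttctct
Rplp2, chr7:141447636-141447665, plus strand: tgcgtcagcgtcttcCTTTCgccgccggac
In all, 13 of the 61 ribosomal protein genes (21.3%) had such a start, against 813 of 27025 genes with a RefSeq promoter (3.01%). A start annotated a few bases away from the one the cell uses hides the tract, so a window without it says only that these letters are not at this annotated start. Between LLC and control libraries the median log2 difference of the 13 with the tract was 0.05 (neocortex), 0.11 (cerebellum) and 0.03 (hippocampus), and that of 45 others 0.02, 0.11 and 0.01. Between control regions it was -0.15 for cerebellum minus neocortex, -0.04 for hippocampus minus neocortex and 0.11 for hippocampus minus cerebellum, and for the others -0.18, 0.01 and 0.18.

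Ribosomal protein mRNAs were abundant, and their levels were spread widely. The 78 tested genes had a median of 301 TPM over all libraries, with quartiles of 162 and 469 TPM, and TPM is already scaled to transcript length. Rplp1, an acidic protein of the stalk that recruits elongation factors, was the highest at a mean of 1703 TPM (1097 to 2181 over the 24 libraries). It was followed by Rps15 at 924, Rpl4 at 905, Rpl17 at 798 and Rpl13a at 748 TPM, and these 5 genes held 18.2% of the summed TPM of the family. The lowest was Rps27l, the paralog of Rps27, at 28.1 TPM, then Rpl27 at 30.6, Rps20 at 63.4, Rps19 at 70.6 and Rpl10 at 70.7 TPM. The highest mean was 60.6 times the lowest, but the lowest was that of a paralog. The values of Rpl27 and Rpl10 are uncertain because of the copies described below. This ratio therefore does not measure how unevenly the core genes are expressed.

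**Figure D1:**
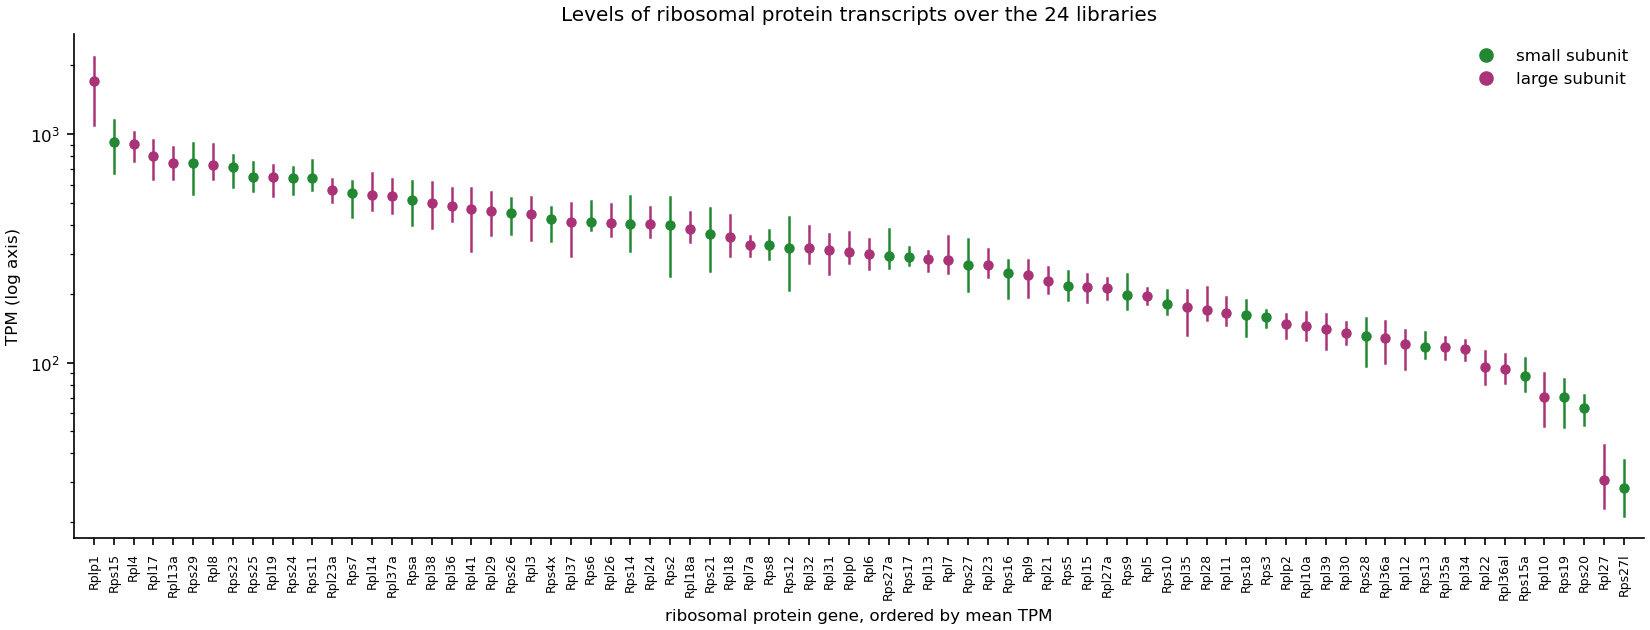
Mean TPM (log axis) of the 78 tested ribosomal protein genes in order of level, with lines from the lowest to the highest of the 24 libraries, green for the small and purple for the large subunit. Rplp1 stands highest at 1703 TPM and Rps27l lowest at 28.1 TPM.

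Most paralogs of the main genes were at or near 0 in these brain regions. Rpl3l, known from heart and skeletal muscle, had a mean of 0.421 TPM against 446 TPM for Rpl3. Rpl39l had a mean of 0.151 TPM against 140 TPM for Rpl39 and was listed at 0 in all 4 cerebellar controls. Rpl10l, which takes the place of the X-linked Rpl10 in male germ cells, was above 0 in 2 libraries only, at 0.0646 TPM in neocortical LLC replicate 4 and 0.0714 TPM in hippocampal LLC replicate 4. Rps4l was listed at 0 in every library, whereas the X-linked Rps4x had 423 TPM. Rpl6l had a mean of 0.0932 TPM, and GENCODE M21 lists Rps4l and Rpl6l as processed pseudogenes. These 5 genes were not tested. Rpl36al, at 93.3 TPM, was in contrast close to Rpl36a at 129 TPM.

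The low levels of Rpl10 and Rpl27 stood beside high levels of processed pseudogenes, intronless copies made from their mRNAs. The table has 269 symbols that name pseudogenes of members by the ending -ps. Of these, 253 were listed at 0 in every library and 3 had a mean of at least 1 TPM: Rpl10-ps3 at 650 TPM, Rpl27-ps3 at 484 TPM and Rps12-ps3 at 439 TPM. Each aligned to its parent's transcript at 100% identity, over 740, 411 and 494 bases. Of the TPM of gene and copy together, the copy held 90.2% for Rpl10, 94.1% for Rpl27 and 58.0% for Rps12. For Rpl10 and Rps12 1 window each is shown, because bases that span an exon junction of the gene are found side by side in the copy. The windows are GENCODE M21 transcript sequence on GRCm38, and capitals mark the last base of 1 exon and the first of the next.
Rpl10, exons ending at 74271718 and starting at 74271800 of chromosome X, plus strand; copy at chr9:50344845-50344874, minus strand: gccgtggtgtccctGAtgctaagatccgaa
Rps12, exons ending at 23785902 and starting at 23785677 of chromosome 10, minus strand; copy at chr19:59322590-59322619, plus strand: atcaacctgataaaGGttgatgacaacaag
All 5 junctions in the coding part of Rpl10 and 3 of the 4 in that of Rps12 were found exactly in the single-exon copy. A read from such a stretch matches gene and copy equally well, and how the authors' counting assigned it is not given in the sources used here.

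Values of these 3 genes are therefore uncertain, and each tested difference named for them below is also given with the copy added. In control neocortex Rpl10 had 60.8 ± 6.67 TPM and its copy 703 ± 35.3 (mean ± SD, n = 4), in control cerebellum 81.3 ± 10.01 and 453 ± 46.5, and in control hippocampus 66.5 ± 2.09 and 715 ± 33.7. The gene and its copy thus stood in opposite order between cerebellum and the other 2 regions. Within groups, the Pearson r between the log2 levels of gene and copy was -0.61 for Rpl10, -0.34 for Rpl27 and -0.25 for Rps12 over 24 libraries. These r are descriptions only, and those of Rpl27 and Rps12 are weak. The within-group SD of log2 TPM was smaller for the sum of gene and copy than for either alone: 0.10 for Rpl10, against 0.16 for the gene and 0.13 for the copy, and 0.12 for Rps12, against 0.26 and 0.14.

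**Figure D2:**
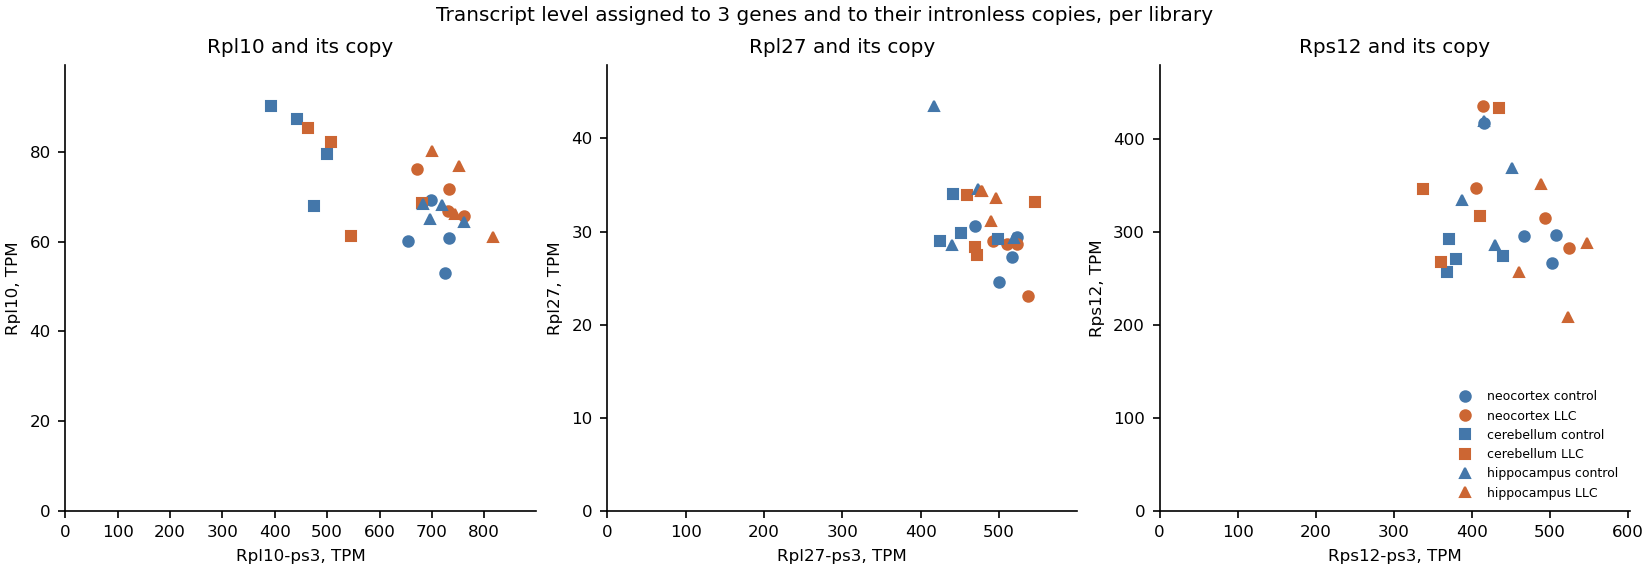
TPM of the parent gene (vertical) against TPM of its pseudogene copy (horizontal) in each of the 24 libraries for Rpl10, Rpl27 and Rps12; shape gives the region and colour the treatment. The copies of Rpl10 and Rpl27 hold most of the TPM in every library, and the Rpl10 gene holds 6.81 to 18.7% of the pair's TPM.

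Summed over the tested and untested members, ribosomal protein mRNA took 2.88% of all TPM in control neocortex, 2.45% in control cerebellum and 2.87% in control hippocampus. The copies of Rpl10, Rpl27 and Rps12, together at means of 1678, 1297 and 1598 TPM in these groups, are not in these sums. They are also not in the subunit ratio below. The 4 control libraries of the neocortex had 28579, 28825, 27799 and 29973 TPM, and the LLC libraries 29022, 30368, 29882 and 28619 TPM. In the hippocampus the controls had 28015, 29615, 27387 and 29735 TPM, and the LLC libraries 27711, 29763, 29113 and 28778 TPM. Both pairs of groups overlapped. In the cerebellum the controls had 25765, 24437, 23980 and 23827 TPM, and the LLC libraries 30642, 26325, 25461 and 24593 TPM. Here LLC replicate 1 lay above all other cerebellar libraries, and replicates 3 and 4 lay below the highest control. The mean and SD over 4 libraries were 24502 ± 881 TPM for the cerebellar controls and 26755 ± 2686 TPM for cerebellar LLC. The ratio of large to small subunit mRNA stayed within 1.51 to 1.57 as a group mean.

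**Figure D3:**
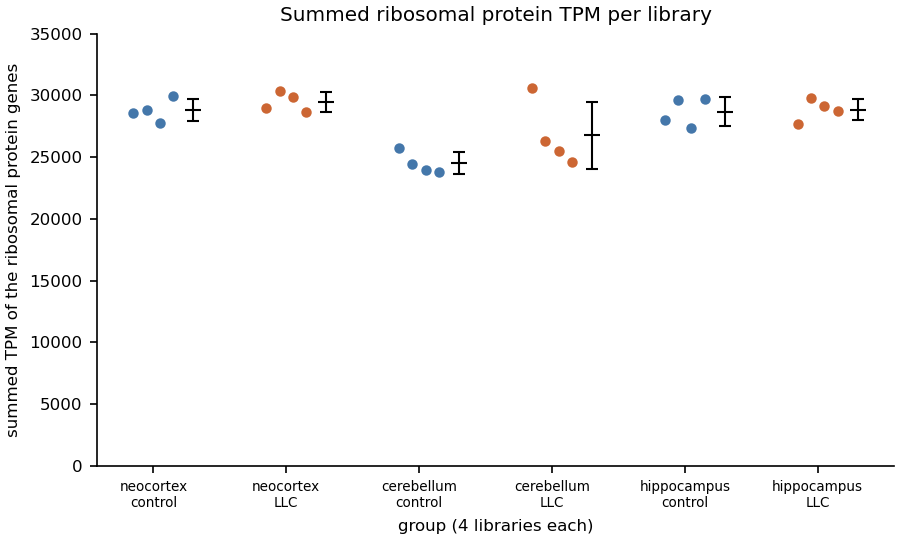
Summed TPM of the ribosomal protein genes in each library by group, with the mean and SD of each group of 4. Cerebellar controls (23827 to 25765 TPM) lie below every neocortical and hippocampal library, and 1 cerebellar LLC library, at 30642 TPM, stands above the others of its region.

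In the neocortex, 2 of 78 ribosomal protein genes rose in LLC mice, Rps14 and Rpl3, and none fell. This was tested with limma on log2(TPM + 1), adjusted over all 14485 genes tested, with 0.05 as the threshold. Of all genes, 5.59% rose and 2.95% fell, so the share of the family that passed was below the background. With each library's trend in transcript length and GC content removed the split turned to 0 higher and 4 lower (Rpl23a, Rpl36al, Rps10 and Rpl36a, the last pair named after their values were seen), against 4.04% and 5.43% of all genes, and the member median to -0.01. The member differences lay between -0.18 and 0.26 on the log2(TPM + 1) scale, with a median of 0.03 against 0.01 for all genes. The LLC libraries lay above all controls for 10 members, against 10.9% of all genes, and below all controls for 4, against 6.18%.

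Rps14, a small-subunit protein known from human anaemia caused by the loss of 1 gene copy, was at 397, 419, 374 and 411 TPM in control neocortex and at 481, 469, 534 and 433 TPM in LLC neocortex. All LLC libraries were above all controls, replicate 4 by the least, and the difference was 0.26 ± 0.06 (SE) with limma adjusted p = 0.0361. Rpl3, which lies close to the peptidyl transferase centre, had 433, 445, 424 and 446 TPM in controls and 506, 488, 477 and 459 TPM in LLC libraries. Its difference was 0.14 ± 0.04 (limma adjusted p = 0.0485). Neither gene passed when any 1 of the 8 libraries other than LLC replicate 4 was left out. Without LLC replicate 4, the LLC library with the least haemoglobin, 18 members passed, 15 higher and 3 lower, where 15.2% of all genes passed as higher and 11.3% as lower, and Rps14 differed by 0.30 (limma adjusted p = 0.00297). The part of haemoglobin RNA in these differences was not tested. With haemoglobin and mitochondrial genes taken out of the total, which only rescales the other genes, Rpl3 did not pass. The 2 members that passed were then Rps14 and, named after its value was seen, Rps18.

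Toward lower values in neocortex the strongest differences, Rpl23a and Rpl36al, did not pass, but the calls near the threshold moved with the settings. Rpl3 lost its call in 14 of the 19 alternatives and Rps14 in 10, while Rpl23a gained one in 9 and Rpl36al in 2. Rpl23a, at the exit of the peptide tunnel, had 583, 594, 638 and 615 TPM in controls and 511, 547, 505 and 580 TPM in LLC libraries. The groups did not overlap, and the difference of -0.18 ± 0.05 had a limma adjusted p just above the threshold of 0.05. With scaling by the median ratio of genes in place of TPM totals it was -0.20 (limma adjusted p = 0.0389), so the split of calls was then 1 higher (Rps14) and 1 lower (Rpl23a) in place of 2 and 0. Rpl36al had 96.6, 101, 98.0 and 105 TPM in controls and 82.3, 88.4, 92.7 and 95.6 TPM in LLC libraries, a difference of -0.16 ± 0.05 (limma adjusted p = 0.0693).

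In the cerebellum no ribosomal protein gene passed in either direction, where 1.23% of all 14624 genes tested rose and 1.27% fell. At an unadjusted p under 0.05 there were 15 members, all with higher values in LLC libraries, which is 19.2% of the family against 24.4% of all genes. The median member difference was 0.12, against -0.04 for all genes, 70 of 78 differences were above 0, and 76 lay above the median of all genes. LLC libraries were above all controls for 9 members, against 6.42% of all genes, and below all controls for 0, against 10.3%. In a fit of all 24 libraries at once, which shares 1 estimate of the spread, 17 members passed, all higher, where 7.01% of all genes passed as higher and 12.6% as lower.

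Rpl10a, which forms the L1 stalk of the large subunit, had the smallest p. It was at 137, 127, 125 and 133 TPM in cerebellar controls and at 167, 151, 151 and 144 TPM in LLC libraries, a difference of 0.23 ± 0.06 (limma adjusted p = 0.0732). Rps14 had 340, 315, 328 and 308 TPM in controls and 437, 374, 366 and 360 TPM in LLC libraries (0.25 ± 0.07, limma adjusted p = 0.0886). For both genes the groups did not overlap, and LLC replicate 1 was the highest library. Toward lower values, Rpl23a was at -0.09 (limma adjusted p = 0.342) and Rpl10 at -0.13, and with its copy added Rpl10 turned to 0.22 (limma adjusted p = 0.211).

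Cerebellar LLC replicate 1 stood apart from the other 3 in several respects. Its median member difference from the control mean was 0.31, against 0.10, 0.04 and 0.00 in replicates 2, 3 and 4, and 75 of 78 members lay above the control mean. Its cerebellar marker list differed by -0.77 from the controls, at a sum of 2384 TPM against 4129 to 4259 TPM in the other LLC libraries, and its oligodendrocyte list by 0.60. Genes with transcripts of 4000 bases or more had a median of -0.30 in it. The part of tissue makeup and of transcript length in the family's difference was not tested. Without this library the median member difference in the cerebellum was 0.06 and 2 members passed, where 4.45% of all genes passed as higher and 4.39% as lower: Rpl10a at 0.19 (limma adjusted p = 0.0410) and Rps14 at 0.18 (limma adjusted p = 0.0452). Without LLC replicate 4, 3 members passed as higher, against 4.24% of all genes: Rpl10a, Rpl13a and Rps27a, the last of which encodes ubiquitin fused to a ribosomal protein. The latter pair are named after their values were seen.

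In the hippocampus no member passed either, where 2.58% of all 14650 genes tested rose and 1.03% fell. At an unadjusted p under 0.05 there were 12, of which 7 had higher and 5 lower values in LLC libraries, or 15.4% of the family against 22.2% of all genes. The median was 0.02 against 0.01 for all genes. The groups did not overlap upward for 6 members, against 8.95% of all genes, and downward for 3, against 4.81%. Rpl7 had 252, 268, 275 and 261 TPM in controls and 290, 291, 292 and 284 TPM in LLC libraries (0.13 ± 0.04, limma adjusted p = 0.0830). Rps14 had 377, 423, 393 and 410 TPM in controls and 425, 458, 439 and 457 TPM in LLC libraries (0.15 ± 0.05, limma adjusted p = 0.0984). Both were without overlap and did not pass. Rpl27a had 222, 228, 219 and 233 TPM in controls and 204, 205, 213 and 216 TPM in LLC libraries (-0.11 ± 0.04, limma adjusted p = 0.133), and Rpl36al differed by -0.12 (limma adjusted p = 0.155). Without LLC replicate 4, 1 member passed, Rpsa at -0.20, where 4.90% of all genes passed as lower.

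**Figure D4:**
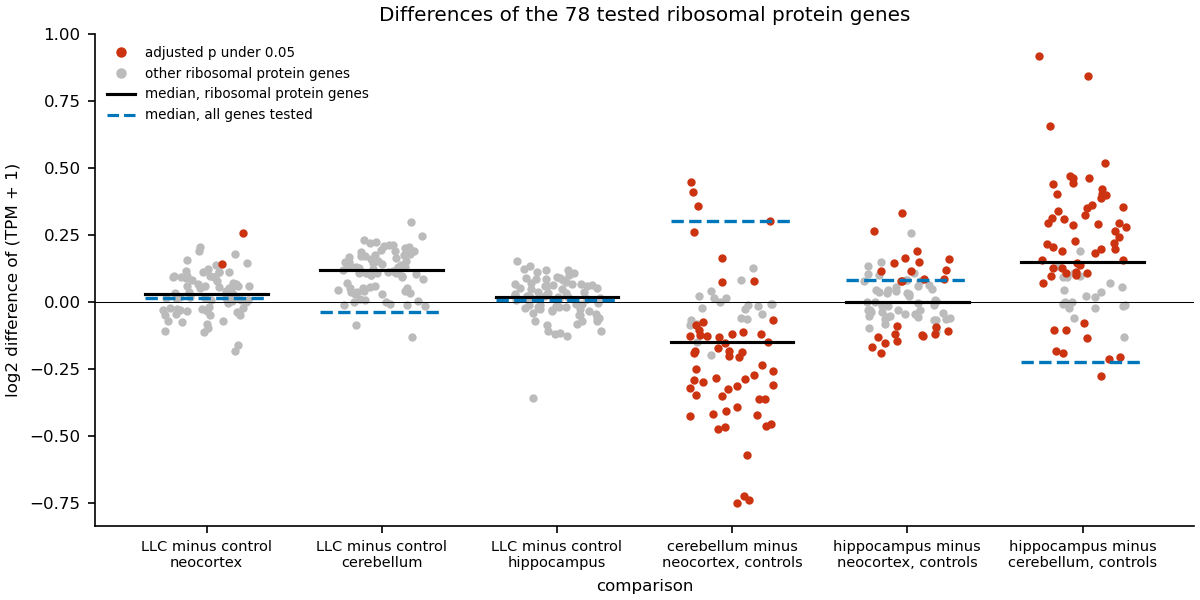
Log2(TPM + 1) differences of the 78 tested ribosomal protein genes in the 3 LLC comparisons and the 3 comparisons of control regions, 1 point a gene, red where the limma adjusted p was under 0.05; black lines give the member median and dashed blue lines the median of all genes. LLC differences lie near 0, with medians of 0.03, 0.12 and 0.02, whereas differences between control cerebellum and the other regions reach beyond 0.7 in size, and under median-ratio scaling no member is higher in cerebellum than in neocortex by the test.

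In 4 of 78 members every LLC library lay above every control of its region in all 3 regions: Rps14, Rps18, Rpl10a and Rpl4. The same held for 1.82% of 13633 genes, and the reverse for 0 members and 0.836% of genes. Rps18 and Rpl4 are named for this after their values were seen. With median-ratio scaling, and with haemoglobin and mitochondrial genes taken out, 3 members met this: Rpl3, Rps14 and Rps18. If libraries of 1 number share a mouse across regions, the 3 regions are not independent.

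Rps18, which sits in the head of the small subunit and has a TOP start in the window above, had 159, 156, 150 and 162 TPM in control neocortex and 176, 168, 183 and 166 TPM in LLC neocortex. In the cerebellum it had 140, 136, 135 and 131 TPM in controls and 183, 150, 149 and 147 TPM in LLC libraries. In the hippocampus it had 158, 172, 163 and 170 TPM in controls and 174, 188, 175 and 181 TPM in LLC libraries. The margins were narrow and none of the differences passed: 0.14 in neocortex (limma adjusted p = 0.0546), 0.21 in cerebellum (0.142) and 0.11 in hippocampus (0.155).

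Rpl4, which lines part of the peptide tunnel, had 895, 893, 861 and 909 TPM in control neocortex and 999, 942, 968 and 938 TPM with LLC. Cerebellar controls had 814, 788, 759 and 767 TPM and LLC libraries 956, 828, 890 and 823 TPM. Hippocampal controls had 916, 952, 954 and 933 TPM and LLC libraries 989, 954, 968 and 1017 TPM, where the lowest LLC and the highest control library both round to 954. Its differences were 0.11, 0.16 and 0.07, with limma adjusted p of 0.0724, 0.170 and 0.343. Rpl10a had 135, 132, 129 and 129 TPM in control neocortex against 142, 143, 145 and 139 TPM with LLC (0.11, limma adjusted p = 0.0515), and 152, 154, 146 and 148 TPM in control hippocampus against 159, 165, 158 and 156 TPM with LLC (0.09, limma adjusted p = 0.196).

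**Figure D5:**
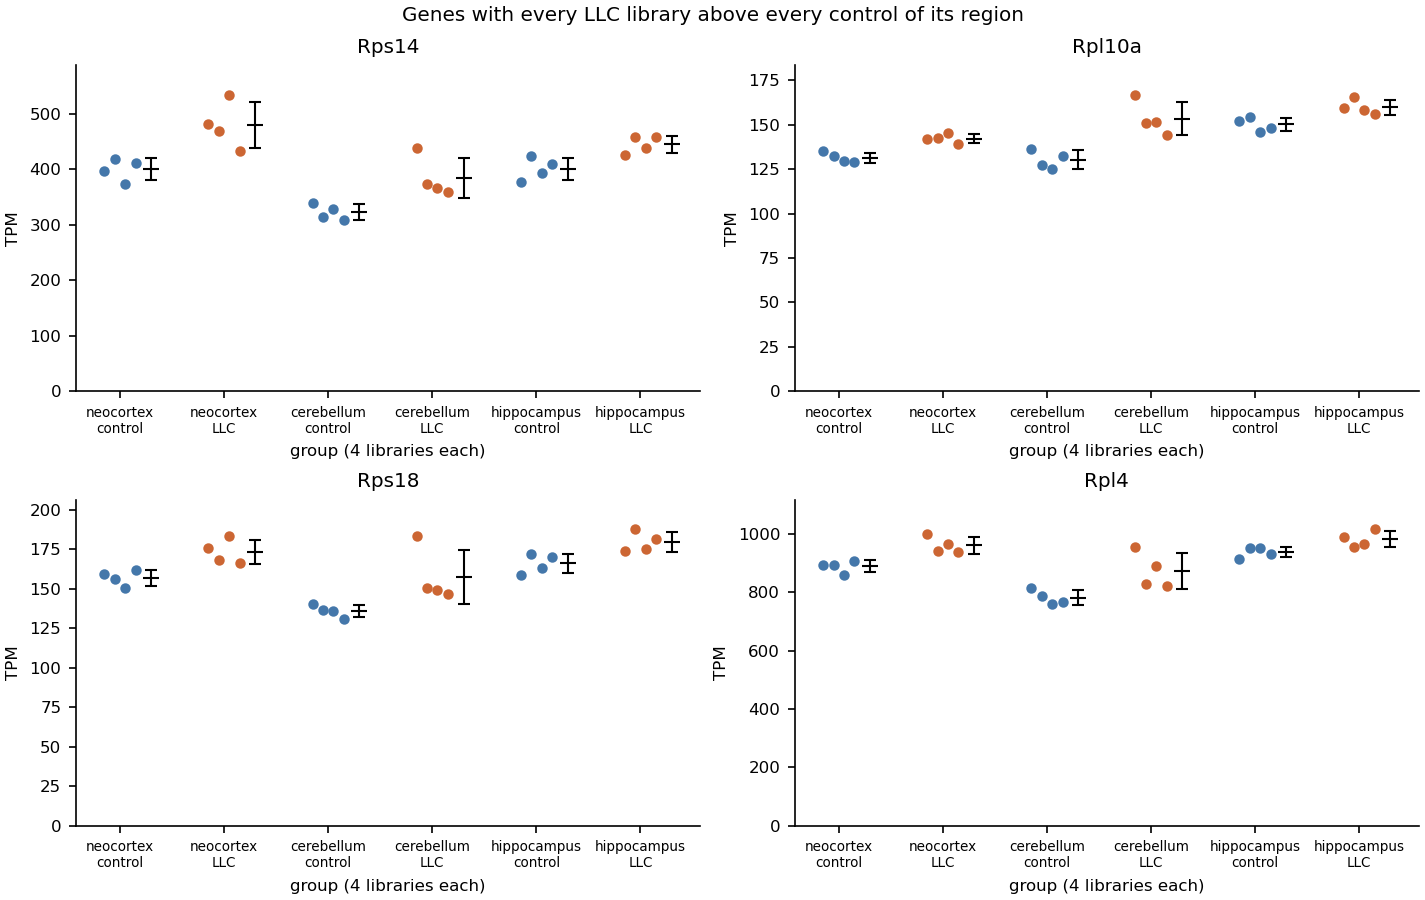
TPM of Rps14, Rpl10a, Rps18 and Rpl4 in each of the 24 libraries by region and treatment, with the mean and SD of each group of 4. LLC libraries lie above all controls of their region in each panel (with median-ratio scaling this holds for Rps14 and Rps18 but not for Rpl10a and Rpl4), and only Rps14 in neocortex passed the test, at adjusted p = 0.0361.

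Whether the LLC difference itself differed between regions was tested as an interaction in a fit of all 24 libraries. No member passed for cerebellum against neocortex (0.612% of all 14873 genes tested did), for hippocampus against neocortex (0% did) or for hippocampus against cerebellum (0.128% did). At an unadjusted p under 0.05 there were 6, 0 and 13 members, or 7.69%, 0% and 16.7% of the family, against 12.7%, 1.99% and 12.4% of all genes, and the 13 all had the lower LLC difference in hippocampus. The largest for a gene alone was Rps12, whose LLC difference in hippocampus minus that in cerebellum was -0.66 ± 0.23 (limma adjusted p = 0.251), and with its copy added -0.11 ± 0.11 (limma adjusted p = 0.721). Its hippocampal values were 335, 369, 286 and 420 TPM in controls and 208, 351, 257 and 288 TPM with LLC, and it is 1 of the genes with a copy of equal sequence. Rpl28, with a TOP start, had the smallest p between cerebellum and neocortex, at 0.17 (limma adjusted p = 0.322), and Rpl10 was at -0.34 (limma adjusted p = 0.337), which turned to 0.16 ± 0.10 with its copy added (limma adjusted p = 0.543). The medians of the members over these 3 differences were 0.08, -0.02 and -0.09. Without cerebellar LLC replicate 1 the first was 0.02 and the last -0.02, so both rest in large part on that library. On leaving out other single libraries the median for hippocampus minus neocortex lay between -0.03 and 0.00.

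More of the family passed between control regions than between treatments, and the same held for all genes. At an unadjusted p under 0.05, 75.6% of the family differed between control cerebellum and neocortex, against 85.3% of all genes. For LLC in neocortex these shares were 29.5% and 29.8%. The region fit held more libraries than each LLC fit, so the counts of the 2 kinds of comparison are not like for like. Of the 78 genes, 49 were lower and 8 higher in control cerebellum than in control neocortex, where 24.6% of all 14802 genes tested were lower and 60.0% higher. The member median was -0.15, against 0.30 for all genes, and the lower calls were 22 of 31 small-subunit and 27 of 47 large-subunit genes. Median-ratio scaling, which moved the median of all genes from 0.30 to 0.00, gave 73 lower and 0 higher. Of the genes that passed in either direction, 49.7% were then higher in place of 70.9%. Of 2637 other genes with transcripts of at most 1000 bases, 942 were then higher and 1055 lower, with a median of -0.02. With haemoglobin and mitochondrial genes taken out of the total the split was 66 lower and 5 higher, and with the trend in transcript length and GC content removed 72 and 1. The shares of all genes that passed under the last pair of settings are not given here. The direction of the family's median was thus the same under each of these scalings, and the higher calls were not.

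Rps2, a small-subunit protein of the mRNA entry site, had 258, 258, 274 and 240 TPM in control cerebellum, 422, 446, 425 and 444 TPM in control neocortex and 474, 503, 498 and 471 TPM in control hippocampus. Its cerebellar libraries were all far below the rest, by -0.75 ± 0.04 against neocortex (limma adjusted p = 2.53e-10). Rplp1 had 1236, 1128, 1114 and 1097 TPM in cerebellum, 1852, 1915, 1824 and 1978 TPM in neocortex and 2034, 2084, 1906 and 2181 TPM in hippocampus, with -0.73 ± 0.05 for cerebellum against neocortex (limma adjusted p = 2.25e-09). Rpl41, the smallest ribosomal protein, had 359, 332, 329 and 325 TPM in cerebellum, 565, 542, 569 and 573 TPM in neocortex and 541, 537, 469 and 580 TPM in hippocampus (-0.74 ± 0.05, limma adjusted p = 8.60e-09). In each of the 3 genes the cerebellar controls did not overlap the controls of either other region.

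The other stalk genes had smaller differences than Rplp1, and the differences between the 3 genes were not tested. Rplp0, the base of the stalk, was higher in cerebellum than in neocortex on the TPM scale by 0.08 (limma adjusted p = 0.0459). This is below the median of 0.30 for all genes, and under median-ratio scaling no member passed as higher. Rplp2, the partner of Rplp1, was at -0.15 (limma adjusted p = 0.0552) in controls and at -0.19 (limma adjusted p = 0.0124) in LLC libraries. Rpsa, which is also known as a laminin receptor, was lower in cerebellum (-0.42, limma adjusted p = 5.09e-08), and the X-linked Rps4x and Rpl36a were at -0.35 (limma adjusted p = 4.97e-07) and -0.39 (limma adjusted p = 4.05e-06). Rps6, the target of the S6 kinases, was at -0.02 (limma adjusted p = 0.654), as was Rps27a at 0.04 (limma adjusted p = 0.433). Of the MDM2-binding proteins, Rpl11 was at -0.07 (limma adjusted p = 0.230) and Rpl5 at -0.07 (limma adjusted p = 0.0452).

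The largest higher values in cerebellum were in Rps27l, Rpl10 and Rps15a. Rps27l, a target of p53, had 34.2, 34.2, 28.8 and 32.8 TPM in control cerebellum and 22.0, 24.5, 25.5 and 22.2 TPM in control neocortex (0.45 ± 0.07, limma adjusted p = 4.42e-05), whereas its paralog Rps27 was lower in cerebellum, at -0.29 (limma adjusted p = 0.0412). Rps15a had 104, 95.4, 95.7 and 96.0 TPM in cerebellum and 75.0, 76.7, 75.9 and 77.3 TPM in neocortex (0.36 ± 0.04, limma adjusted p = 3.37e-07). The regions did not overlap in either gene, but under median-ratio scaling Rps27l was at 0.13 and Rps15a at 0.03, and neither passed. Rpl10 was at 0.41 ± 0.09 (limma adjusted p = 4.43e-04), and the sum of Rpl10 and its copy at -0.52 ± 0.05 (limma adjusted p = 2.85e-07), so its direction turned with the copy. With their copies, Rps12 was at -0.26 (limma adjusted p = 6.61e-04) in place of -0.20 (0.152), and Rpl27 at -0.13 (0.0473) in place of 0.13 (0.301).

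Hippocampus and neocortex were close. Of the 78 genes, 14 were higher and 12 lower in control hippocampus, against 40.3% and 21.2% of all genes, and the median was 0.00, against 0.08 for all genes. Median-ratio scaling gave 2 higher and 32 lower, with a member median of -0.10. Of 2637 other genes with transcripts of at most 1000 bases, 739 were then higher and 705 lower, with a median of 0.00. The shares of all genes under that scaling are not given here. The split of the family's calls between these regions thus depends on the scaling. Rpl22, a protein outside the catalytic core that also binds viral and cellular RNA, had 104, 104, 104 and 105 TPM in hippocampus and 81.6, 82.5, 83.7 and 83.4 TPM in neocortex (0.33 ± 0.03, limma adjusted p = 9.38e-08). Rps27l was at 0.26 ± 0.07 (limma adjusted p = 0.00593; 0.17 and not passing under median-ratio scaling) and Rpl10a at 0.19 ± 0.03 (limma adjusted p = 2.20e-04). Rpl24 had 357, 369, 353 and 366 TPM in hippocampus and 392, 419, 404 and 435 TPM in neocortex (-0.19 ± 0.04, limma adjusted p = 3.51e-04). Rpl17 was at -0.17 ± 0.04 (limma adjusted p = 0.00200), and Rpl36 was at -0.16 ± 0.06 (limma adjusted p = 0.0325), which no longer passed without neocortical control 15, 16 or 17 or hippocampal control 14 or 16 (limma adjusted p 0.0677 to 0.106).

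The comparison of hippocampus with cerebellum shares its control libraries with the other comparisons of regions, so its values are a restatement in part. Here 48 members were higher and 9 lower in hippocampus, against 27.4% and 55.6% of all genes, with a median of 0.15 against -0.23 for all genes. Median-ratio scaling gave 72 higher and 0 lower. Of 2637 other genes with transcripts of at most 1000 bases, 1061 were then higher and 911 lower, with a median of 0.04. The shares of all genes under that scaling are not given here. Rps2 was higher by 0.92 ± 0.04 (limma adjusted p = 3.09e-11), Rplp1 by 0.84 ± 0.05 (limma adjusted p = 5.19e-10) and Rpl41 by 0.66 ± 0.05 (limma adjusted p = 3.94e-08), on the values by library given above. Toward the cerebellum, Rps15a was at -0.21 ± 0.04 (limma adjusted p = 7.16e-05) and Rpl24 at -0.21 ± 0.04 (limma adjusted p = 8.96e-05), and under median-ratio scaling both were at 0.02 and did not pass. Rpl10 was at -0.28 (limma adjusted p = 0.00779) alone and at 0.55 (limma adjusted p = 1.70e-07) with its copy.

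The same contrasts in the LLC libraries, which share no library with the controls, gave fewer calls in the family. Between cerebellum and neocortex, 7 of the 8 higher and 22 of the 49 lower calls were also made in the LLC libraries, against 81.7% of the higher and 85.3% of the lower calls of all genes. The member median there was -0.07 in place of -0.15. Between hippocampus and cerebellum, 21 of 48 and 7 of 9 were also made, against 84.2% and 78.4%, and between hippocampus and neocortex 5 of 14 and 0 of 12, against 64.9% and 63.1%. None of the members was called in the opposite direction. The LLC contrasts include cerebellar LLC replicate 1, whose summed TPM was 30642, against 24593 to 26325 in the other cerebellar LLC libraries. They were not run without it, so its part in the lower counts and the smaller median was not tested. In the LLC libraries Rps2 was at -0.67 for cerebellum against neocortex (limma adjusted p = 2.88e-06) and at 0.78 for hippocampus against cerebellum (limma adjusted p = 7.58e-07), and Rplp1 at -0.56 for cerebellum against neocortex (limma adjusted p = 1.87e-04).

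Within groups, most ribosomal protein genes went up and down together from library to library. After centring log2(TPM + 1) on the mean of each of the 6 groups, the median Pearson r of a member with the mean of the other members was 0.78 over 24 libraries, and 70 of 78 were above 0.5. Without cerebellar LLC replicate 1 it was 0.70, with 62 members above 0.5. These points share library and total, so the r is a description only. Rps15a had the lowest r at -0.14, then Rpl27 at -0.00, Rpl10 at 0.13, Rpl22 at 0.29 and Rpl23a at 0.34, but this order rests on cerebellar LLC replicate 1. Without it Rps15a was at 0.17, Rpl10 at 0.31 and Rpl23a at 0.18, and the lowest were Rpl27 at -0.15, Rpl22 at 0.12, Rps2 at 0.13, Rpl35 at 0.15 and Rpl13 at 0.16. The median within-group SD was 0.09 on the log2 scale, and Rps12 had the largest at 0.26. Outside the family, named by a high r with its mean over 24 libraries among 13425 genes, were Mypn at 0.90, at a mean of 1.02 TPM, the prefoldin subunit gene Pfdn5 at 0.90, the cytochrome oxidase subunit gene Cox4i1 at 0.89 and Fbxo2 at 0.88. Without cerebellar LLC replicate 1 these were 0.84, 0.82, 0.81 and 0.77.

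Among genes that work with the cytosolic ribosome, few passed in LLC mice; the shares of all genes were 5.59% higher and 2.95% lower in neocortex and 2.58% and 1.03% in hippocampus. Of 24 translation factors, 1 rose and 1 fell in neocortex, 0 passed in cerebellum, and 1 rose and 1 fell in hippocampus. Both regions gave the same pair. Eif2s1, the alpha subunit of the factor that brings the initiator tRNA, was at 33.8 ± 1.41 TPM (SD, n = 4) in neocortical controls and 29.0 ± 1.595 TPM with LLC, and fell (-0.22, limma adjusted p = 0.0306). In hippocampus it was at 37.3 ± 0.299 and 31.9 ± 1.59 TPM, and at a difference of -0.22 (limma adjusted p = 0.0361). In cerebellum Eif2s1 was also lower, at 39.4 ± 2.03 TPM in controls and 31.8 ± 3.27 TPM with LLC, but did not pass. Eif4b, a helper of the eIF4A helicase, was higher by 0.21 in neocortex (limma adjusted p = 0.0450), from 160 ± 2.76 to 185 ± 15.5 TPM, and by 0.21 in hippocampus (limma adjusted p = 0.0412). Of 13 eIF3 subunits only Eif3f passed, in neocortex, at 0.20 (limma adjusted p = 0.0261). Without passing, Eif3f was also higher with LLC elsewhere. Its means were 101 ± 2.07 and 121 ± 14.4 TPM in cerebellum and 97.0 ± 1.68 and 114 ± 11.4 TPM in hippocampus. Eif3f and Eif4b were also on a list of other TOP genes. Of that list Hnrnpa1 fell in neocortex, at -0.35 (limma adjusted p = 0.0323).

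Of 30 ribosome biogenesis genes, none passed in any region, with medians of -0.05, -0.05 and -0.01 in neocortex, cerebellum and hippocampus. Of 18 genes of the mTORC1 pathway, Ddit4, a stress-induced inhibitor, rose in neocortex from 48.1 ± 3.23 to 97.5 ± 35.1 TPM (0.92 ± 0.24, limma adjusted p = 0.0430). It was also higher with LLC, without passing, in cerebellum (75.7 ± 3.72 and 117 ± 28.3 TPM) and hippocampus (74.2 ± 3.69 and 118 ± 28.6 TPM). Rheb, the activator of the kinase, fell in neocortex (-0.17, limma adjusted p = 0.0271), and Sesn1, another inhibitor, rose in hippocampus (0.42, limma adjusted p = 0.0349). Of 77 mitochondrial ribosomal protein genes, 1 rose and 3 fell in neocortex, and 1 fell in each of the other regions, with medians of -0.05, -0.06 and -0.05. Among them Mrpl42 was lower in neocortex at -0.21 (limma adjusted p = 0.0107), Mrps14 in hippocampus at -0.27 (limma adjusted p = 0.0353) and Mrpl35 in cerebellum at -0.47 (limma adjusted p = 0.0389). In the cerebellum the cytosolic family's median of 0.12 thus stood beside -0.06 for the mitochondrial family and 0.00 for 2622 other genes with transcripts of at most 1000 bases, the length class of 64 of the 78 members.

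Between control cerebellum and neocortex, 47 of the 77 mitochondrial ribosomal protein genes were higher and 3 lower, close to the 60.0% of all genes that were higher. Their median was 0.18, below the 0.30 of all genes, and that of the cytosolic genes -0.15. With median-ratio scaling 16 were higher and 41 lower and their median was -0.13, beside -0.48 for the cytosolic genes, so the direction of the mitochondrial family turned with the scaling. Ribosome biogenesis genes were split 22 higher and 5 lower, with a median of 0.32, and 12 and 11, with a median of 0.02, under median-ratio scaling. Of the genes that encode fused or related ribosomal proteins, Fau was higher in cerebellum on the TPM scale by 0.38 (limma adjusted p = 0.00181), Rpl7l1 was at 0.50 (limma adjusted p = 5.42e-08) and Rpl22l1 at -0.11 (limma adjusted p = 0.0423); with median-ratio scaling 1 gene of this list passed as higher and 2 as lower.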

How the data were processed

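Per the labels, 24 poly(A)-selected, stranded libraries (TruSeq) were made from Trizol-extracted RNA of 3 brain regions. The values are TPM that the authors deposited in 1 table of gene symbols. The submitters' processing notes name the build mm10; of aligner, counter and annotation the names were not given in the sources used here. Because TPM sums to a fixed total, a large change in some genes shifts all others, and read depth is unknown.

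Genes with a mean of at least 1 TPM in the libraries of a comparison were tested on log2(TPM + 1) with limma 3.58.1 (R 4.3.3; trended eBayes, two-sided), with Benjamini-Hochberg adjustment over all genes. A difference is on the log2(TPM + 1) scale, which understates changes of low genes. LLC was compared with control per region (8 libraries), regions in the 12 controls, and LLC differences between regions in all 24. P-values measure the spread between these libraries. The models were tested on simulated data. The members and lists were chosen with earlier results of these data known.

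Named were the passing members, or the strongest that did not pass, at most 5 each way per LLC comparison and 3 each way per region comparison, the 5 highest and lowest, paralogs, stalk genes and a fixed few, passing genes of related lists, and genes most similar to the family. A few genes that met these rules are left out of the text. Transcript lengths and copies came from GENCODE M21 (94.6% of symbols matched 1 gene; copies aligned with blastn 2.17.0), and figures from matplotlib 3.10.9 (Python 3.11.15). Alternatives were other pseudocounts, filters, scalings, a length and GC correction, robust eBayes, 1 fit of all libraries, replicate blocks and leaving out each library; copies added to genes and the region comparison in LLC libraries were chosen after seeing the data. Same-numbered libraries did not deviate together in every pair. With the description number 5 of 12 pairs had r over 0.1 (-0.26 to 0.47). With the title number 8 of 12 did in controls (-0.06 to 0.26) and 8 of 12 in LLC libraries (-0.10 to 0.63). The highest were those of LLC replicate 4, at 0.46, 0.63 and 0.46. Sums of the neutrophil list rose in the order of LLC replicates 1, 3, 2 and 4 in each region. Libraries of 1 number may thus share a mouse. No block was used in the main tests, so such a pairing is ignored there, and counts with a block are given in the last section.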

Additional observations from a re-analysis of the deposited data

Results flagged for a closer look

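Over 19 named genes and the summed TPM of the family, 120 groups of 4 libraries were checked for a library whose gap to its nearest neighbour took more of the group's range than Dixon's critical value for 4 samples, which chance gives in about 5% of groups. This marked 4 of them. Rpl17 was at 931 TPM in neocortical control 17, against 850 to 860 TPM in the other 3 controls. Rps15a was at 104 TPM in cerebellar control 14, against 95.4 to 96.0 TPM. Rps2 was at 330 TPM in cerebellar LLC replicate 1, against 269 to 271 TPM in the other 3, and this is the library with the highest summed ribosomal protein TPM of its region. Rps27l was at 24.9 TPM in neocortical LLC replicate 2, against 21.4 to 21.8 TPM.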

How the results depend on the processing

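Counts of members that passed ranged, on leaving out 1 library at a time, from 0 to 18 for LLC in neocortex, 0 to 3 in cerebellum, 0 to 1 in hippocampus, 50 to 58 for control cerebellum against neocortex, 18 to 24 for hippocampus against neocortex and 48 to 60 for hippocampus against cerebellum. They stayed at 0 for the 3 differences of the LLC difference. In neocortex the LLC count was 2, and it was 0 without a filter on low values, 5 with quantile normalization, 4 with the length and GC trend removed (all lower) and 0 with the replicate block by description number. With that block it stayed at 0 in the other regions. With a replicate block by title number the counts were 58, 31 and 58 for the comparisons of regions and 0 for each difference of LLC differences. In 1 fit of all 24 libraries the counts were 17 for LLC in cerebellum and 16 for hippocampus against neocortex, which was 40 with the length and GC trend removed. In LLC libraries in place of controls, 31 (cerebellum and neocortex), 6 (hippocampus and neocortex) and 32 (hippocampus and cerebellum) passed. The cause of these shifts was not tested. Leaving out a library lowers the number of samples, yet some counts rose. The family's median LLC difference changed sign with the length and GC trend removed, to -0.01 in neocortex and -0.00 in hippocampus. The cerebellar median under that setting is not given here. No member passed there, where 0.652% of all genes passed as higher and 0.467% as lower. The summed TPM rose, because the total shrank, to 39637 (neocortical controls), 40393 (neocortical LLC), 31251 (cerebellar controls), 34686 (cerebellar LLC), 38540 (hippocampal controls) and 38496 (hippocampal LLC) without haemoglobin and mitochondrial genes. With median-ratio scaling it was 31643 in neocortical controls, 32016 in neocortical LLC and 21569 in cerebellar controls, and moved by less than 1 SD in the other 3 groups. For 36 pairs of a named gene and a comparison, 742 settings were run: 668 kept direction and side of the threshold, 51 lost the call, 16 gained one and 7 changed sign. These were Rpl10 with its copy added (0.22 for LLC in cerebellum, -0.52 between cerebellum and neocortex, 0.55 between hippocampus and cerebellum; for the LLC difference, 0.16 in cerebellum minus neocortex and -0.14 in hippocampus minus cerebellum) and, between control hippocampus and cerebellum with median-ratio scaling, Rps15a (0.015) and Rpl24 (0.024). Depth is unknown, so how small a difference it would allow cannot be stated.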
